A study of Mus musculus with 22 samples.

Results

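A set of 40 cell cycle genes, given by name and split by the phase in which they act, was followed through the RNA-seq libraries of mouse memory T helper cells. The set held 18 genes of the G1/S transition and 22 genes of G2 and mitosis, and all 40 were found among the 55291 gene names listed per library. Expression was given as FPKM (fragments per kilobase of a gene's length, relative to all mapped fragments), so that levels of different genes can be compared per length. The 8 RNA libraries formed 4 groups of 2, named by location and origin, with ex-TRM and ex-Tcirc cells from tissue and ex-TRM and ex-Tcirc cells from circulation. TRM denotes tissue-resident and Tcirc circulating memory cells. The remaining 14 samples of the series were ATAC-seq samples and were not used here.

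The cells were donor Th2 cells, helper T cells that make type 2 cytokines, with a transgenic T cell receptor for ovalbumin (OVA). Donors were OT-II creERT2 or DO11.10 mice, and the cells were injected into a vein of OVA-sensitized mice, either athymic BALB/c-nu/nu animals or C57BL/6 (Ly5.2) animals. Tamoxifen was given to activate the recombinase, whose promoter is not given in the sources used here, and OVA was given again. Circulating ex-TRM cells were taken from blood and lung populations were sorted by congenic markers and CD69, on day 49 or day 71 after transfer. Each RNA library carried the same labels, CD4+ T cells of lung from female mice aged 6 to 10 weeks with Balb/c as the host strain, so a blood source was not labelled for the circulating groups. The labels did not say which of these experiments gave the RNA libraries, nor whether replicates were separate animals. The p-values below therefore reflect the spread among these libraries alone, possibly a technical one, and a difference between groups cannot be told apart from a difference between experiments.

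Entry into the cell cycle is set by D-type and E-type cyclins, which release E2F transcription factors from pocket proteins. E2F factors then induce the genes that load and fire replication origins and that supply nucleotides. The genes of G2 and mitosis are induced later, by complexes of B-Myb and FoxM1 that act through an element called CHR and by NF-Y at CCAAT boxes, while the DREAM complex represses both sets in resting cells. Memory T cells are mostly quiescent, and re-exposure to antigen returns them to cycle.

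These elements were looked up in the RefSeq promoter table (GRCm38.p6), which held 32 of the 40 genes. The strings searched on both strands in the 250 bases before the start were TTCCCGC or TTGGCGC or TTCGCGC or TTGCCGC for E2F, TTTGAA or TTCGAA for CHR, and CCAAT for NF-Y. Matches of the E2F strings on opposite strands can overlap. Shown first are the G1/S genes with the highest mean FPKM among those with an E2F match, Rrm1, a subunit of ribonucleotide reductase, and Mcm7, a subunit of the replicative helicase, with the match in capitals. The Rrm1 stretch is chr7:102441445-102441694 on the plus strand. For Mcm7, on the minus strand, only the bases around the match are shown, chr5:138171361-138171390, because another start of the gene lies upstream.

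Rrm1: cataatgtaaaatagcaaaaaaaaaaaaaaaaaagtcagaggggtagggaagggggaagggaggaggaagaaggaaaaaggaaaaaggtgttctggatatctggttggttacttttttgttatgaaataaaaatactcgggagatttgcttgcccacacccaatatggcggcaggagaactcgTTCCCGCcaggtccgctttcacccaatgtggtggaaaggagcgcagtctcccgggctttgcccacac

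Mcm7: gcgctagcgaaTTCCCGCgtccactggaga

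The G2/M genes with the highest mean FPKM among those with a CHR match were Mki67, which encodes the proliferation antigen Ki-67, and Top2a, the topoisomerase that untangles sister chromatids. The Mki67 stretch is chr7:135716451-135716629 and the Top2a stretch chr11:99024200-99024439, both on the minus strand, with CHR matches of either orientation in capitals.

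Mki67: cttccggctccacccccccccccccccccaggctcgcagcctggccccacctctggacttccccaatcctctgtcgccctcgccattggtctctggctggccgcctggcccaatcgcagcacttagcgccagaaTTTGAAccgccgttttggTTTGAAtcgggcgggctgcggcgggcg

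Top2a: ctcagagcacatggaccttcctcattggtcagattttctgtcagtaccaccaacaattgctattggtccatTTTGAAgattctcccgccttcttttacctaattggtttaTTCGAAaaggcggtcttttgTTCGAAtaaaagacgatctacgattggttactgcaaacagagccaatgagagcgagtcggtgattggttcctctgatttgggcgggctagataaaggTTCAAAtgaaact

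The Mki67 stretch held 2 CHR matches and the Top2a stretch 4. An E2F match was present in 6 of 14 G1/S promoters (42.9%) and in 3 of 18 G2/M promoters (16.7%), against 9.01% of the 27025 genes in the table. A CHR match was present in 8 of 18 G2/M promoters (44.4%) and in 2 of 14 G1/S promoters (14.3%), against 19.6% of all genes. CCAAT was present in 16 of 18 G2/M promoters (88.9%) and in 9 of 14 G1/S promoters (64.3%), against 37.5% of all genes. Among the 12520 table genes with at least 1 FPKM in 2 of 7 libraries, these shares were 13.8%, 17.1% and 39.6%, in the order E2F, CHR and CCAAT. A match describes the letters in this window and is not a measured site.

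**Figure D1:**
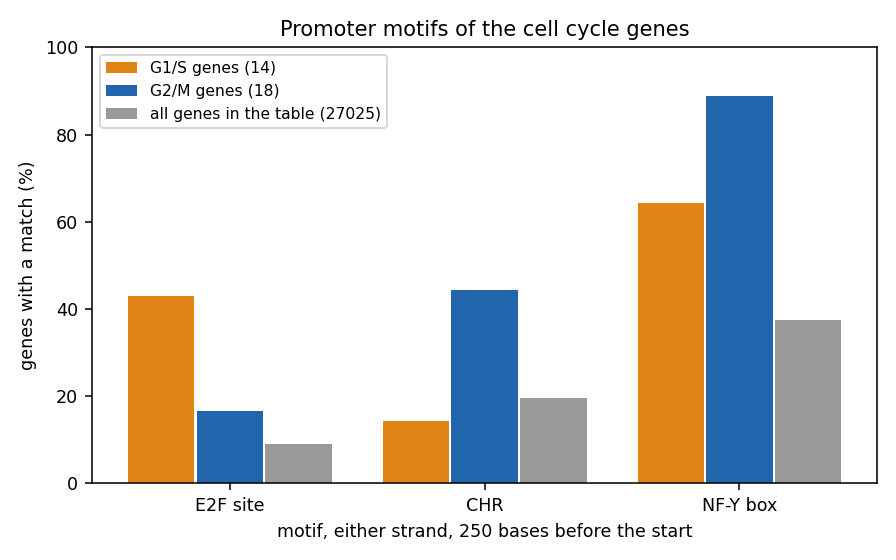
Share of genes (%, vertical axis) with at least 1 match to the E2F, CHR or NF-Y (CCAAT) strings on either strand of the 250 bases before the start, for the G1/S genes (orange, 14), the G2/M genes (blue, 18) and all genes of the RefSeq promoter table (grey, 27025). The E2F bar is highest for the G1/S genes at 42.9%, and the CHR bar for the G2/M genes at 44.4%.

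Depth differed widely between the libraries, and a value of 0 has to be read beside it. Circulating ex-TRM replicate 1 listed 917 genes above 0 and all 40 cell cycle genes at 0, and it was treated as missing. The other 7 libraries listed 29688 to 37894 genes above 0 in tissue and in circulating ex-TRM replicate 2, but 12785 and 7042 in circulating ex-Tcirc. Steps between low FPKM values placed circulating ex-Tcirc replicates 1 and 2 at 8.61% and 4.03% of the depth of the deepest library, tissue ex-TRM replicate 1. Circulating ex-TRM replicate 2, at 25.3%, lay next to tissue ex-Tcirc replicate 1, at 24.1%. Of 12 housekeeping genes, 4 were at 0 in circulating ex-Tcirc replicate 2, so a gene without signal is written here as listed at 0. Markers of CD4 T cells summed to 3942 to 5301 FPKM in these 7 libraries, with 4 of 11 at 0 in circulating ex-Tcirc replicate 2. From here on, circulating ex-TRM stands for its replicate 2, and paired values are in the order replicate 1, replicate 2. In bulk RNA, fewer cells in cycle and less transcript per cycling cell cannot be told apart.

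The G2/M genes as a list were most abundant in the circulating libraries of greater depth. Their FPKM summed to 93.1 and 119 in tissue ex-TRM and 104 and 99.6 in tissue ex-Tcirc, against 322 in circulating ex-TRM and 491 and 41.6 in circulating ex-Tcirc. The sums of the G1/S genes lay closer together, at 301 and 309 in tissue ex-TRM and 221 and 269.6 in tissue ex-Tcirc, against 348 in circulating ex-TRM and 304.5 and 144 in circulating ex-Tcirc. The highest G2/M sums were thus those of circulating ex-TRM and of replicate 1 of circulating ex-Tcirc, and circulating ex-Tcirc replicate 2 the lowest sum of both lists. Ccnd2, Ccnd3 and Tubb5, genes that resting T cells also express, made up much of these sums. Without them the G2/M sum divided by the G1/S sum was 0.247 and 0.354 in tissue ex-TRM and 0.399 and 0.321 in tissue ex-Tcirc, against 0.976 in circulating ex-TRM and 1.42 and 1.51 in circulating ex-Tcirc. On this ratio the tissue and circulating libraries did not overlap, although in circulating ex-Tcirc replicate 2 it rested on 5 G2/M genes above 0, mainly Top2a and Kif11. With Tubb5 and the D cyclins kept, the ratio in that library was 0.288, below the 0.31 to 0.469 of the tissue libraries. The separation of the locations on this ratio therefore depends on leaving out these genes.

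**Figure D2:**
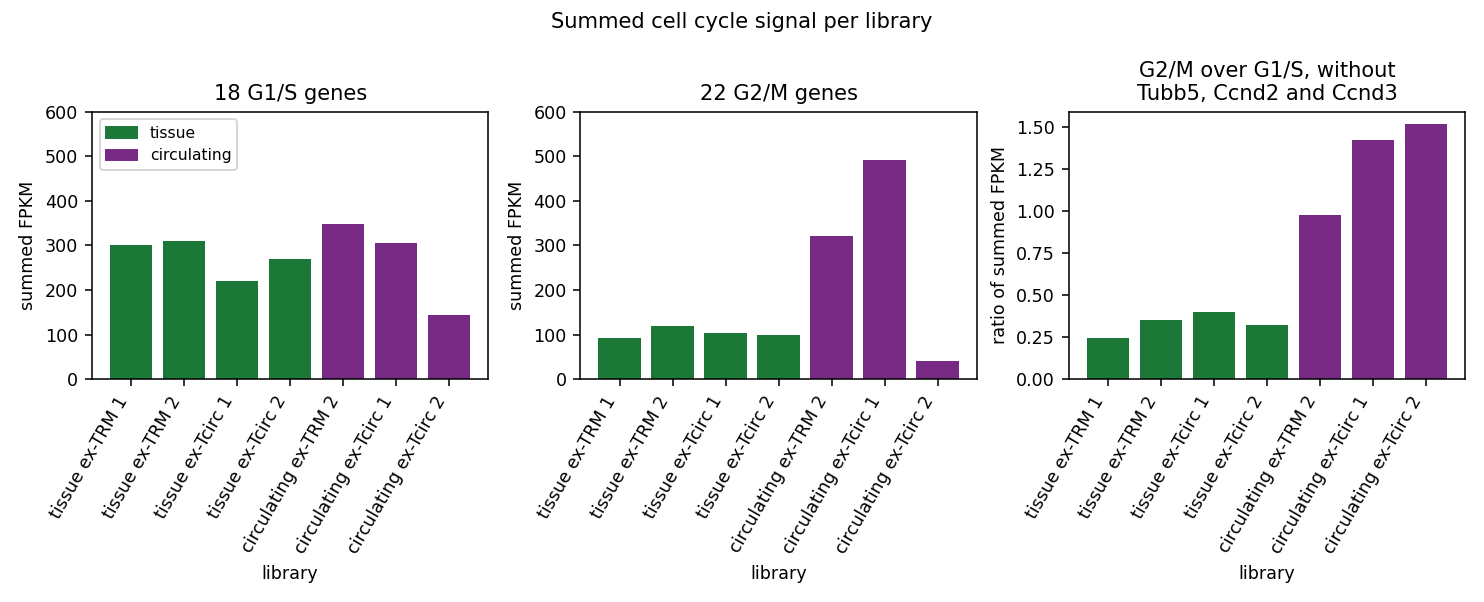
Summed FPKM of the 18 G1/S genes (left), of the 22 G2/M genes (middle) and the ratio of G2/M to G1/S sums without Tubb5, Ccnd2 and Ccnd3 (right) in each library; green bars are tissue and purple bars circulating libraries. G2/M sums are 93.1 to 119 in tissue, against 322, 491 and 41.6 in circulation, and the ratio is 0.247 to 0.399 in tissue, against 0.976 to 1.51 in circulation.

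Markers of other cells moved with some of these libraries. Circulating ex-Tcirc replicate 1, which had the highest G2/M sum, also had the highest summed myeloid markers, with 689 FPKM against 42.7 to 139 in tissue. Replicate 2 had 300.4 FPKM of myeloid markers, from Lyz2 at 255 and Csf1r at 45.2, with the other 7 of 9 at 0, so both circulating ex-Tcirc libraries lay above all tissue libraries in this sum. Antigen presentation genes summed to 448 FPKM in replicate 1 and 7.62 in replicate 2, against 18.5 to 113 in tissue, with 3 of 4 at 0 in replicate 2. For replicate 1, summed alveolar epithelial markers were 588 FPKM, against 3.99 to 96.1 in tissue, with Sftpb, Sftpd and Epcam at 0, and all 6 were at 0 in replicate 2. Circulating ex-TRM had 61 FPKM of myeloid markers, inside the tissue range, with 5 of 9 markers at 0 (among them Adgre1 and S100a8), and 28.9 FPKM of alveolar markers with 4 of 6 at 0. The part of other cells in the values of the circulating ex-Tcirc libraries was not tested.

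The comparison of tissue with circulating ex-TRM cells asked how cells of resident origin differ by location, and rested on 2 libraries against 1. In this contrast 18 of the 22 G2/M genes were lower in the tissue mean, 2 were higher and 2 were at 0 throughout. The median G2/M difference was -1.44 on the log2(FPKM + 1) scale, beside -0.13 over all 28325 genes tested, while the G1/S median was -0.39 with 12 of 18 genes lower. This scale understates changes of genes near or below 1 FPKM. Of all genes tested, 16202 were lower or equal in tissue and 12123 higher. The single circulating ex-TRM library exceeded all 4 tissue libraries in 18 of 22 G2/M genes (81.8%) and in 11 of 18 G1/S genes (61.1%), against 26.5% of all genes tested. It lay below all 4 tissue libraries in 1 gene of each list, against 16.2% of all genes. Housekeeping genes in this library also summed above every tissue library, to 5700 FPKM against 3433 to 4844. Only Gapdh and Tbp of them lay within the tissue range. Its CD4 T cell markers summed to 5301 FPKM against 3942 to 4913, with only Cd3e, Trac and Trbc2 within the tissue range. The counts above all tissue libraries alone therefore do not single out the cell cycle genes. Set beside tissue ex-Tcirc replicate 1 alone, the library of nearest depth, circulating ex-TRM was higher in 18 of 22 G2/M and 14 of 18 G1/S genes. The same held for 39.7% of all genes and 45.2% of protein-coding genes. It also held for every housekeeping gene and every CD4 T cell marker counted here. That tissue library had the highest tissue sums of B and plasma cell markers (408 FPKM) and alveolar markers (96.1 FPKM). Under 3 other scalings the first counts were 15 to 17 for G2/M, with Ccnb1, Cdc20 or Cenpf among those lost, and 9 to 11 for G1/S. No gene of either list, and 0 of all genes tested (0%), passed limma's adjusted threshold of 0.05 in this contrast, where 1797 genes were higher and 685 lower in tissue at an unadjusted p under 0.05. Among the members 7 G2/M genes were under this unadjusted value, 6 of them lower in tissue, and 3 G1/S genes, all higher in tissue. The 3 G1/S genes with the smallest p were Ccne1 (limma adjusted p = 0.131, log2 difference 1.45 ± 0.2 SE), Ccne2 (adjusted p = 0.391, 1.48 ± 0.42) and Tyms (adjusted p = 0.45, 1.38 ± 0.43). Those of G2/M were Cdk1 (adjusted p = 0.131, 1.17 ± 0.2), Ube2c (adjusted p = 0.266, -2.83 ± 0.67) and Tpx2 (adjusted p = 0.391, -1.94 ± 0.55).

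The genes of the mitotic cyclin and kinase module come first. Ccna2, which encodes cyclin A2 of S phase and G2, was at 1.28 and 4.9 FPKM in tissue ex-TRM and 2.33 and 1.32 in tissue ex-Tcirc, against 12.9 in circulating ex-TRM and 34.1 and 0 in circulating ex-Tcirc. The cyclin B genes, partners of CDK1 at mitotic entry, were close to the limit of detection in tissue. Ccnb1 was at 0 to 3.62 FPKM in tissue, against 3.83 in circulating ex-TRM and 5.87 and 0 in circulating ex-Tcirc. Ccnb2 was at 0 and 1.08 FPKM in tissue ex-TRM and 0 and 0 in tissue ex-Tcirc, against 7.42 in circulating ex-TRM and 69.3 and 0 in circulating ex-Tcirc. Both circulating libraries of greater depth thus lay above every tissue library in Ccna2, Ccnb1 and Ccnb2, and the shallowest library had none of them. Cdk1, the mitotic kinase itself, was at 1.11 and 1.39 FPKM in tissue ex-TRM and at 0 in the other 5 libraries.

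Mitotic kinases and checkpoint genes were low or listed at 0 in most libraries. Aurka and Aurkb, the spindle and the chromosomal passenger kinase, were at 2.97 and 9.26 FPKM in circulating ex-TRM. Among the other 6 libraries only tissue ex-TRM replicate 1 listed either, with Aurka at 1.2 FPKM. Bub1b, a kinase of the spindle checkpoint, was at 1.14 and 1.64 FPKM in tissue ex-TRM and 0 and 0.874 in tissue ex-Tcirc, against 5.49 in circulating ex-TRM and 0 in both circulating ex-Tcirc libraries. Cdc20, which activates the anaphase-promoting complex, was at 1.14 and 2.05 FPKM in tissue ex-TRM and 0 and 0 in tissue ex-Tcirc, against 2.2 in circulating ex-TRM and 0 in both circulating ex-Tcirc libraries. Its E2 enzyme gene Ube2c was at 0 to 1.34 FPKM in tissue, against 9.87 in circulating ex-TRM and 0 in both circulating ex-Tcirc libraries. The circulating ex-TRM library was above every other library in these genes. Plk1, the polo kinase, ran the other way, at 1 to 2.6 FPKM in tissue, and was at 0 in all 3 circulating libraries. Birc5 and Bub1, a passenger subunit and a checkpoint kinase, were at 0 in all 7 libraries.

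Top2a, Cenpf, Tpx2, Kif11 and Nusap1, genes of the spindle and chromosomes, were the 5 G2/M genes above 0 in all 7 libraries. Kif11 (chr19:37376382-37421863, GRCm38.p6), the kinesin that pushes spindle poles apart, was at 1.97 and 3.21 FPKM in tissue ex-TRM and 3.18 and 2.69 in tissue ex-Tcirc, against 10.8 in circulating ex-TRM and 21.3 and 13.3 in circulating ex-Tcirc. All 3 circulating libraries lay above all 4 tissue libraries. Top2a (chr11:98992947-99024199) showed the same separation, with 3.34 and 6.41 FPKM in tissue ex-TRM and 7.4 and 5.72 in tissue ex-Tcirc, against 21.2 in circulating ex-TRM and 46.5 and 21.1 in circulating ex-Tcirc. Kif11 and Top2a were the 2 of 40 members in which every circulating library was higher, a pattern of 2.33% of all genes tested. Cenpe and Cenpf, of the kinetochore, were less even. Cenpe was at 1.17 to 2.1 FPKM in tissue, against 5.96 in circulating ex-TRM and 8.83 and 0 in circulating ex-Tcirc. Cenpf was at 1.47 to 7.5 FPKM in tissue, against 7.55 in circulating ex-TRM and 16.5 and 4.61 in circulating ex-Tcirc, and its tissue range was set by the single high value of tissue ex-Tcirc replicate 1. Tpx2, which nucleates spindle microtubules, was at 1.39 to 3.53 FPKM in tissue, against 10.1 in circulating ex-TRM and 2.85 and 1.91 in circulating ex-Tcirc. Nusap1, which bundles them, was at 0.684 to 1.33 FPKM in tissue, against 3.94 in circulating ex-TRM and 3.01 and 0.611 in circulating ex-Tcirc. For both genes the circulating ex-TRM library was the highest of the 7. Kif23, the kinesin of the midzone, was at 6.7 and 8.68 FPKM in tissue ex-TRM and 2.04 and 7.56 in tissue ex-Tcirc, against 17.1 in circulating ex-TRM and 0 in both circulating ex-Tcirc libraries. It was above all tissue values in one circulating library and at 0 in the other circulating pair.

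Proliferation-associated genes of higher abundance separated the circulating ex-Tcirc libraries from each other. Stmn1, which destabilises microtubules, was at 3.34 and 3.06 FPKM in tissue ex-TRM and 5.46 and 3.22 in tissue ex-Tcirc, against 22.4 in circulating ex-TRM and 32.7 and 0 in circulating ex-Tcirc. Tubb5, a beta-tubulin, was at 61.3 and 64.8 FPKM in tissue ex-TRM and 60.3 and 60.8 in tissue ex-Tcirc, against 124 in circulating ex-TRM and 179 and 0 in circulating ex-Tcirc. In both genes circulating ex-Tcirc replicate 1 was the highest of the 7 libraries and replicate 2 the only one at 0. Mki67 had the same shape, with 3.65 and 8.04 FPKM in tissue ex-TRM and 5.78 and 7.27 in tissue ex-Tcirc, against 45 in circulating ex-TRM and 71.3 and 0 in circulating ex-Tcirc. Of the 22 G2/M genes, 10 were at 0 in both libraries of circulating ex-Tcirc, 7 in replicate 2 alone, and 5 were above 0 in both. Circulating ex-Tcirc replicate 1 exceeded all 4 tissue libraries in 11 of 22 G2/M and 6 of 18 G1/S genes, against 16.8% of all genes tested, and lay below them in 2 and 7, against 52.2%. Replicate 2 exceeded them in 2 G2/M and 0 G1/S genes, against 11.3%, and lay below them in 8 and 13, against 64%. Housekeeping genes of replicate 1 summed to 6574 FPKM, against 3433 to 4844 in tissue. Of these, only Eef1a1 and Tbp were not above every tissue library. CD4 T cell markers of replicate 1, at 4204 FPKM, lay within the tissue range of 3942 to 4913. The counts for replicate 1 alone therefore do not single out the cell cycle genes.

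**Figure D3:**
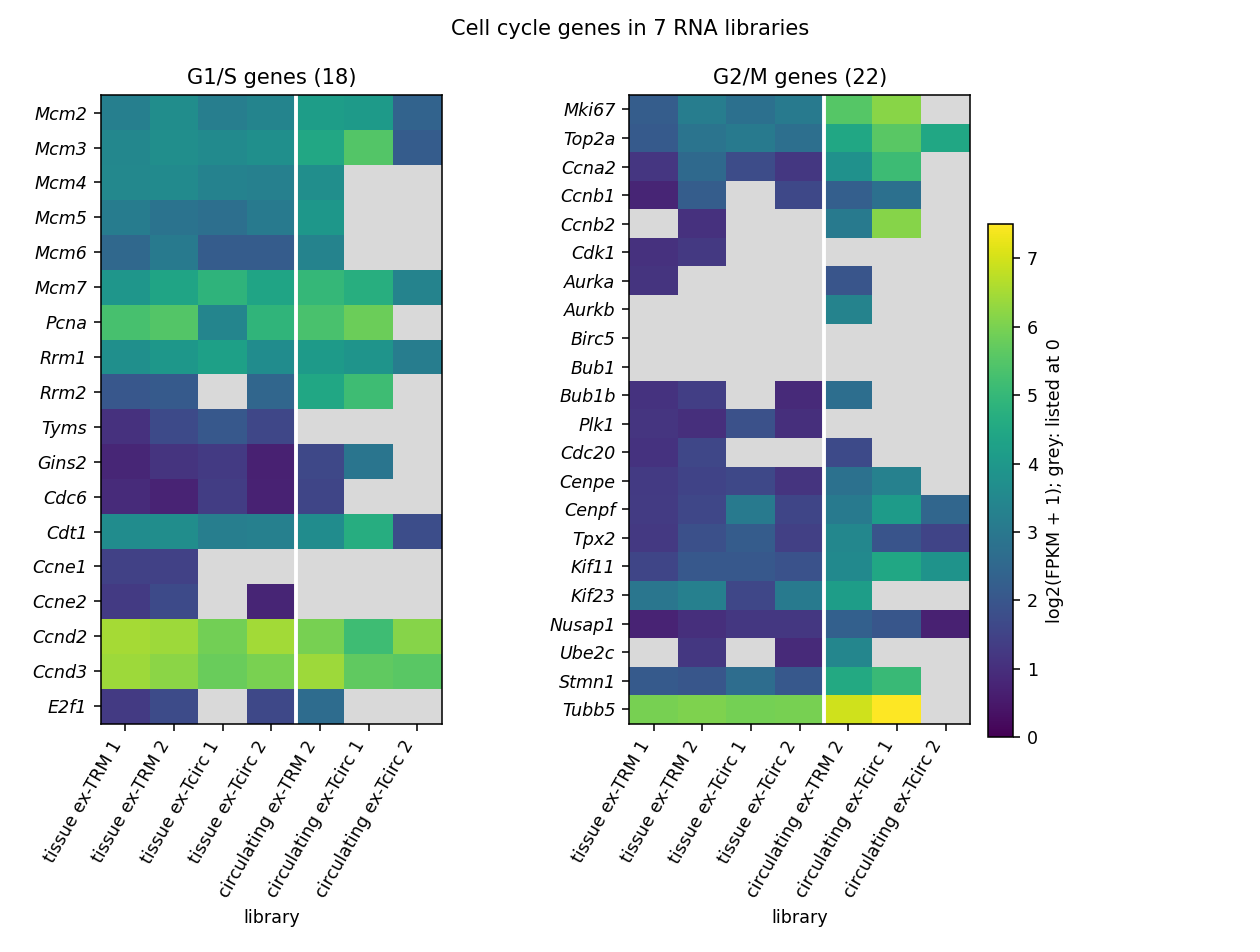
log2(FPKM + 1) of the 18 G1/S genes (left) and 22 G2/M genes (right) in the 7 libraries, 4 from tissue left of the white line and 3 circulating right of it; colour gives the level and grey marks genes listed at 0. The circulating ex-TRM column is brighter than every tissue column in 18 of 22 G2/M rows, and the circulating ex-Tcirc columns hold 18 and 28 grey cells of 40.

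The licensing genes began with the MCM helicase, 6 subunits that form a ring in equal numbers and are loaded on origins in G1. Mcm2 was at 8.34 and 11.8 FPKM in tissue ex-TRM and 8.29 and 9.5 in tissue ex-Tcirc, against 16.9 in circulating ex-TRM and 16.1 and 4.25 in circulating ex-Tcirc. Mcm3 was at 10.2 and 12 FPKM in tissue ex-TRM and 11 and 12.4 in tissue ex-Tcirc, against 21.7 in circulating ex-TRM and 44 and 3.52 in circulating ex-Tcirc. Mcm7 was at 14.3 and 19.9 FPKM in tissue ex-TRM and 28.5 and 19.7 in tissue ex-Tcirc, against 30.6 in circulating ex-TRM and 25.3 and 9.19 in circulating ex-Tcirc. These 3 subunits were above 0 in all 7 libraries. Mcm4 (chr16:15623897-15637400) was at 10.2 and 11 FPKM in tissue ex-TRM and 8.97 and 8.55 in tissue ex-Tcirc, against 12.1 in circulating ex-TRM and 0 in both circulating ex-Tcirc libraries. Mcm5 (chr8:75109468-75128439) was at 7.88 and 6.2 FPKM in tissue ex-TRM and 5.72 and 7.29 in tissue ex-Tcirc, against 14.7 in circulating ex-TRM and 0 in both circulating ex-Tcirc libraries. Mcm6 (chr1:128331575-128359705) was at 4.79 and 7.3 FPKM in tissue ex-TRM and 3.52 and 3.54 in tissue ex-Tcirc, against 9.23 in circulating ex-TRM and 0 in both circulating ex-Tcirc libraries. All 6 were above 0 in tissue and in circulating ex-TRM, and all 6 were higher in circulating ex-TRM than in every tissue library. Under other scalings Mcm4 (median-of-ratios factors) or Mcm7 (equal protein-coding sums) did not exceed every tissue library. In circulating ex-Tcirc replicate 1, Mcm2, Mcm3 and Mcm7 were listed at 16.1 to 44 FPKM beside 3 partner subunits at 0.

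**Figure D4:**
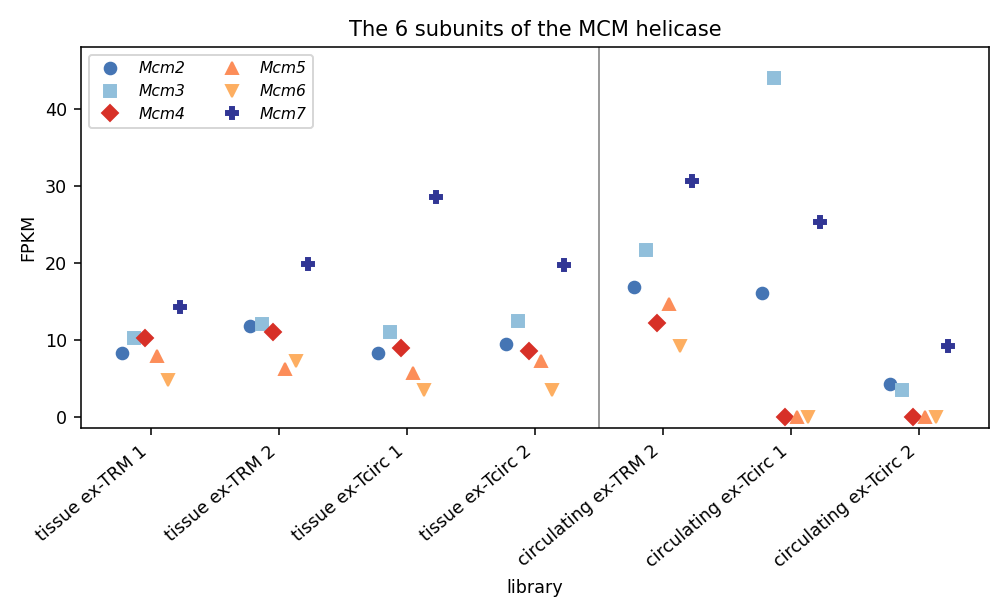
FPKM (vertical axis) of the 6 MCM subunits in each of the 7 libraries, tissue left of the line and circulating right of it, with 1 symbol per subunit. All 6 are above 0 in tissue and in circulating ex-TRM, and Mcm4, Mcm5 and Mcm6 are at 0 in both circulating ex-Tcirc libraries while Mcm3 reaches 44 FPKM in replicate 1.

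The loading factors Cdc6 and Cdt1 differed in level. Cdc6 was at 0.661 to 1.58 FPKM in tissue, against 1.99 in circulating ex-TRM and 0 in both circulating ex-Tcirc libraries. Cdt1 was at 11.5 and 11.8 FPKM in tissue ex-TRM and 8.31 and 8.64 in tissue ex-Tcirc, against 11.4 in circulating ex-TRM and 24.4 and 2.4 in circulating ex-Tcirc. Gins2, a subunit of the active helicase, was at 0.61 to 1.41 FPKM in tissue, against 2.12 in circulating ex-TRM and 6.5 and 0 in circulating ex-Tcirc. Circulating ex-TRM lay above every tissue library in Cdc6 and Gins2 and within the tissue range in Cdt1. Pcna, the sliding clamp of the polymerases, was at 38.8 and 43.7 FPKM in tissue ex-TRM and 9.76 and 29 in tissue ex-Tcirc, against 39.8 in circulating ex-TRM and 54.9 and 0 in circulating ex-Tcirc. Its lowest value above 0 was in tissue ex-Tcirc replicate 1, and the groups overlapped.

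Nucleotide supply genes were split. Rrm2, the subunit of ribonucleotide reductase that is made in S phase, was at 3.13 and 3.38 FPKM in tissue ex-TRM and 0 and 4.57 in tissue ex-Tcirc, against 21.2 in circulating ex-TRM and 35 and 0 in circulating ex-Tcirc. Rrm1, its constitutive partner, was at 12.3 and 14.7 FPKM in tissue ex-TRM and 18.1 and 11.5 in tissue ex-Tcirc, against 15.9 in circulating ex-TRM and 13.8 and 8.09 in circulating ex-Tcirc. The 2 circulating libraries of greater depth exceeded all tissue libraries in Rrm2, while Rrm1 overlapped between locations. Tyms (chr5:30038546-30073645), thymidylate synthase, was at 1.1 and 2.21 FPKM in tissue ex-TRM and 3.19 and 2 in tissue ex-Tcirc, against 0 in circulating ex-TRM and 0 in both circulating ex-Tcirc libraries. It was 1 of the 2 members, with Plk1, in which every tissue library was above every circulating library, a pattern of 12.1% of all genes tested.

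The G1 cyclins and E2f1 completed the list. Ccnd2 and Ccnd3, the D-type cyclins of T cells, were among the most abundant members. Ccnd2 was at 88.7 and 83.9 FPKM in tissue ex-TRM and 58.3 and 86.5 in tissue ex-Tcirc, against 61 in circulating ex-TRM and 35 and 69.8 in circulating ex-Tcirc. Ccnd3 was at 83.1 and 73 FPKM in tissue ex-TRM and 54.3 and 62.3 in tissue ex-Tcirc, against 84.4 in circulating ex-TRM and 49.6 and 47 in circulating ex-Tcirc. Neither separated tissue from circulation. Ccne1 (chr7:38097984-38107490), cyclin E1, was at 1.72 and 1.75 FPKM in tissue ex-TRM and at 0 in the other 5 libraries. Ccne2 was at 1.41 and 2.23 FPKM in tissue ex-TRM, at 0 and 0.731 in tissue ex-Tcirc, and at 0 in circulation. E2f1, the activator that these cyclins release, was at 1.43 and 2.27 FPKM in tissue ex-TRM and 0 and 2.08 in tissue ex-Tcirc, against 5.27 in circulating ex-TRM and 0 in both circulating ex-Tcirc libraries. Its highest value was in circulating ex-TRM.

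Averaged over both origins, tissue minus circulating called 4 of the 37 members that passed the filter, at a limma adjusted p under 0.05. Over all genes tested, 12.5% were called higher in tissue and 0.251% lower, and the median difference was 0.55, so the background itself leaned towards tissue. Kif11 fell by 1.96 ± 0.32 on the log2 scale (limma adjusted p = 0.0301), with 1.97 to 3.21 FPKM in tissue against 10.8 to 21.3 in circulation. The other calls were higher in tissue, Mcm4 (limma adjusted p = 0.0271), Tyms (adjusted p = 0.0333) and Ccne1 (adjusted p = 0.0338). Each of these was at 0 in both circulating ex-Tcirc libraries, so no fold is given, and 2 equal zeros enter the fit as replicates without spread. The count depended on single libraries. It was 0 without either tissue ex-TRM library, 9 and 8 without tissue ex-Tcirc replicate 1 or 2, and 10 without circulating ex-Tcirc replicate 2. The share of all genes called was 0% in both of the first fits, 32% and 36.7% in the next pair and 13.6% in the last. In the last fit 9 genes were lower in tissue, where 2.74% of all genes were, namely Mcm3, Mki67, Top2a, Ccna2, Ccnb2, Cenpe, Kif11, Stmn1 and Tubb5. Without circulating ex-Tcirc replicate 1, Top2a and Kif11 were called lower in tissue, whereas Mcm4, Pcna, Cdt1 and Tubb5 were called higher. In that fit 3.88% of all genes were called lower in tissue and 21.4% higher. Kif11 itself had adjusted p of 0.0108 to 0.473 over 18 alternatives and lost its call in 5, among them both that left out a tissue ex-TRM library.

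Within ex-Tcirc cells, 2 tissue libraries were set against 2 circulating ones. The limma fit called 5 members, where 20.7% of all genes were called higher in tissue and 0.455% lower, with a median of 1.11. Kif11 fell by 2.19 ± 0.41 on the log2 scale (limma adjusted p = 0.0255), with 3.18 and 2.69 FPKM in tissue against 21.3 and 13.3 in circulation. Mcm4, Mcm5, Mcm6 and Tyms were called higher in tissue, with limma adjusted p of 0.00583, 0.00755, 0.0168 and 0.0277, all against 0 in both circulating libraries. The median G1/S difference was 0.46 and the median G2/M difference 0, both under the median of all genes. The number of members called was 3 without either tissue ex-TRM library, 9 without tissue ex-Tcirc replicate 1 and 12 without either circulating ex-Tcirc library. Of all genes, 13% were called in each of the first pair of fits, 37.2% without tissue ex-Tcirc replicate 1, 33.9% without circulating ex-Tcirc replicate 1 and 18.5% without replicate 2. Without replicate 2, Mcm3, Cdt1, Mki67, Top2a, Ccna2, Ccnb2, Kif11, Stmn1 and Tubb5 were called lower in tissue. Without replicate 1, Mcm3, Cdt1, Mki67, Stmn1 and Tubb5 were among 10 called higher in tissue, and Top2a and Kif11 were called lower. Mcm3, Cdt1, Mki67, Stmn1 and Tubb5 therefore took opposite directions with the circulating library used.

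**Figure D5:**
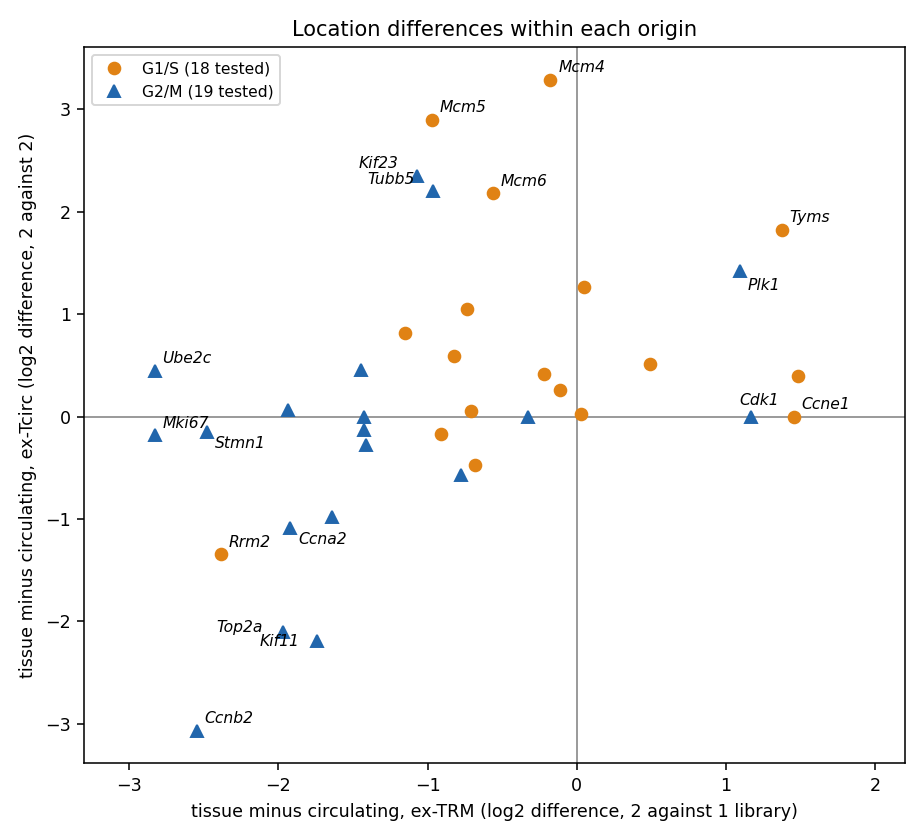
Difference between tissue and circulating libraries in ex-TRM cells (horizontal axis, 2 libraries against 1) and in ex-Tcirc cells (vertical axis, 2 against 2), on the log2(FPKM + 1) scale, for 18 G1/S genes (orange circles) and 19 G2/M genes (blue triangles) that passed the filter. Most blue points lie left of 0, with Kif11 at -1.74 and -2.19, and Mcm4, Mcm5 and Mcm6 lie high because they are at 0 in circulating ex-Tcirc.

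The comparison of origins within tissue asked whether cells from resident and from circulating precursors differ once in the lung. Tissue ex-TRM minus tissue ex-Tcirc called 0 members and 0 of all genes (0%) by limma, where 1133 genes were higher and 265 lower at an unadjusted p under 0.05, with 2 members of each list among the higher ones. The median difference was 0.26 for the G1/S genes, with 12 of 18 higher in ex-TRM, and 0.01 for the G2/M genes, with 11 of 22 higher, beside -0.04 for all genes. Both ex-TRM libraries were above both ex-Tcirc libraries in 7 of 18 G1/S genes (38.9%) and in 4 of 22 G2/M genes (18.2%), against 21.8% of all genes tested and 31% of protein-coding genes. The reverse held for 0 of 18 and 1 of 22, against 10.5% of all genes and 6.36% of protein-coding genes. The smallest p belonged to genes that were at or near 0 in tissue ex-Tcirc. These were Ccne1 (limma adjusted p = 0.0714), Cdk1 (adjusted p = 0.0721), Cdc20 (adjusted p = 0.161) and Ccne2 (adjusted p = 0.726), and none passed. The tissue ex-TRM libraries were also the deepest, at 100% and 90.1% of the deepest library against 24.1% and 57.2% for tissue ex-Tcirc, and depth cannot be told apart from origin for such low genes. Mcm6 was at 4.79 and 7.3 FPKM in ex-TRM against 3.52 and 3.54 in ex-Tcirc (limma adjusted p = 1, log2 difference 0.61 ± 0.35 SE). Bub1b, the third G2/M gene by p, also did not pass (limma adjusted p = 1, log2 difference 0.8 ± 0.39 SE). Without tissue ex-Tcirc replicate 2 the count was 7 members, with Ccne1, Ccne2, E2f1, Cdk1, Bub1b and Kif23 higher and Plk1 lower in ex-TRM. These were 18.9% of the members tested, against 20.7% of all genes called in the same fit. The count was 1, Ccne1, without tissue ex-Tcirc replicate 1 (1.56% of all genes), and 1 without circulating ex-TRM (1.83% of all genes).

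Within circulation, ex-TRM minus ex-Tcirc set 1 library against 2 of lower depth. It shares its libraries with the location comparisons above, so its values are not independent of them. The limma fit called 7 members higher in ex-TRM, Mcm4, Mcm5, Mcm6, Bub1b, Cdc20, Kif23 and Ube2c, with adjusted p of 0.0124 to 0.0361. Over all genes 15.4% were called higher in ex-TRM and 0.106% lower. Every one of these 7 was listed at 0 by both libraries of circulating ex-Tcirc. Of all 22 G2/M genes, 8 were higher in circulating ex-TRM than in replicate 1 of circulating ex-Tcirc and 10 were lower. Of those 8, 6 were set against 0. Among the 12 genes above 0 in both libraries, 10 were lower in ex-TRM and 2, Tpx2 and Nusap1, were higher. Ccnb2 was at 7.42 FPKM in ex-TRM against 69.3 in replicate 1 of ex-Tcirc. Being listed in that library, at 8.61% of the depth of the deepest, favours genes that are high there. The same count over all genes was not made, so no direction of the members is read from these counts. The calls were 0 without either tissue ex-TRM library, as for all genes, 4 without circulating ex-Tcirc replicate 2 (10.8%, against 12.1% of all genes) and 17 without replicate 1 (45.9%, against 28.8%).

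The location difference of ex-TRM minus that of ex-Tcirc passed the limma test for 3 members, Mcm4 and Mcm5 (adjusted p = 0.0427 each) and Ccne1 (adjusted p = 0.0471), where 0.635% of all genes were called higher and 6.77% lower. For Kif11 this difference of differences was 0.45 ± 0.64 (SE) on the log2 scale (limma adjusted p = 0.736), with circulation higher in both origins. Leaving out either tissue ex-TRM library gave 0 calls, and leaving out tissue ex-Tcirc replicate 1, tissue ex-Tcirc replicate 2 or circulating ex-Tcirc replicate 1 gave 8, 9 and 9, beside 28.6%, 38.1% and 22% of all genes called.

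Other genes of the same pathways were counted from lists given by name. Of 49 further mitotic genes, 42 passed the filter, and 38 of these were lower in tissue than in circulating ex-TRM, 4 higher, with none called and a median of -0.91. Of 45 further replication genes, 44 passed, with 28 lower and 16 higher and a median of -0.19. Of 27 G1 kinase, E2F and pocket protein genes, 26 passed, with 12 lower and 14 higher. Of all 28325 genes tested, 16202 were lower or equal in tissue and 12123 higher in this contrast, with a median of -0.13. The circulating side of it is a single library. The most abundant further mitotic gene was Hmgb2, a chromatin protein, with 62.8 and 59.1 FPKM in tissue ex-TRM and 48.5 and 54.8 in tissue ex-Tcirc, against 132 in circulating ex-TRM and 168 and 30.0 in circulating ex-Tcirc. Its libraries overlapped between locations through circulating ex-Tcirc replicate 2 alone. Of all these genes, Rpa1, the large subunit of the single-strand binding protein RPA, was the only one called lower in tissue. It was at 8.27 to 10.3 FPKM in tissue, against 15.5 in circulating ex-TRM and 34.6 and 42.9 in circulating ex-Tcirc (limma adjusted p = 0.046 averaged over origins, log2 difference -1.28 ± 0.26 SE). Averaged over origins, 7 replication genes, 1 mitotic gene and 5 G1 kinase, E2F and pocket protein genes were called higher in tissue, among them Cdk4, Orc4 and Slbp. These were 15.9% of 44, 2.38% of 42 and 19.2% of 26 genes tested, beside 12.5% of all genes. Cdk4, Orc4 and Slbp were each at 0 throughout circulating ex-Tcirc, and the part of depth in these zeros was not tested. The circulating ex-TRM library had Slbp at 41.7 FPKM, above its tissue range of 21.8 to 33.6. It had Cdk4 at 13.4 FPKM, within the tissue range of 11.3 to 22.45, and Orc4 at 8.93 FPKM, below that of 12.5 to 26.2. Of 7 CDK inhibitor genes, 5 passed, and none was called in either direction averaged over origins. Cdkn1b, which encodes p27 and restrains CDK2 in resting T cells, was at 35.2 to 47 FPKM in tissue, against 55.8 in circulating ex-TRM and 48.5 and 0 in circulating ex-Tcirc. Rbl2, which encodes the pocket protein p130 of the DREAM complex, was at 57.5 to 96.9 FPKM in tissue, against 59.5 in circulating ex-TRM and 64.9 and 87.2 in circulating ex-Tcirc. Neither separated the locations.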

How the data were processed

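RNA-seq was measured in 8 libraries of 4 groups, and the sample titles gave their groups and replicates. The deposited values are FPKM for each gene name, per the file headers. Per the submitters' processing notes, the series used HISAT2 2.2.1 and StringTie 3.0.1 beside Trim Galore 0.6.7 and SAMtools 1.15, with HOMER 4.11 and MACS2 2.2.7.1, on the build mm10, and the notes do not assign tools to assays. The annotation and strand setting used in counting are not given here. Per the labels' protocols the libraries were strand-specific and made from small numbers of sorted cells.

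FPKM of a repeated gene name was summed. Read totals are not part of these files, so relative depth was estimated from the ratio at which low values of 2 libraries pile up. log2(FPKM + 1) of the 28325 genes with at least 1 FPKM in at least 2 of 7 libraries was computed from the values the authors deposited and fitted with limma 3.58.1 in R 4.3.3. The fit used group means, an intensity trend, 3 residual degrees of freedom, Benjamini-Hochberg adjustment over all genes and a two-sided threshold of 0.05. Circulating ex-TRM replicate 1 was left out, and its partner was assumed to vary like the other groups. All 18 G1/S genes passed the filter and 19 of 22 G2/M genes did. Aurkb, Birc5 and Bub1 did not. The fit was tested on simulated data.

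The members and the gene lists were chosen with earlier results of these data known. Every member is named with its values, and tests are printed for members that passed or, where none passed, for the 3 of each list with the smallest p. Promoters shown are the 2 members of each list with the highest mean FPKM and a matching motif, and 32 of 40 members were found in the RefSeq table. Alternatives were another pseudocount, other filters, 3 scalings, the highest value per gene name, all 8 libraries, library weights, a block for the replicate number, only the groups compared, a promoter window of 150 bases and leaving out each library. Protein-coding genes only, genes above 0 in all 7 libraries, leaving out both circulating ex-Tcirc libraries, the scalings of the count above all tissue libraries and crossed replicate numbers were added after the data had been seen.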

Additional observations from a re-analysis of the deposited data

Results flagged for a closer look

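The location difference of ex-TRM cells differed from that of ex-Tcirc cells for 3 members in the limma test of the difference itself. Over all genes 6.77% were called lower and 0.635% higher in this test, beside 2 and 1 of 37 members, so the members' share of 8.11% lay near the 7.41% of all genes. On the log2(FPKM + 1) scale, the difference of differences was -3.46 for Mcm4 and -3.87 for Mcm5 (limma adjusted p = 0.0427 each). In both genes tissue exceeded circulation in ex-Tcirc, where both circulating libraries were at 0, and not in ex-TRM. It was 1.45 for Ccne1 (limma adjusted p = 0.0471), which was above 0 in tissue ex-TRM and at 0 in the other 5 libraries. These sizes depend on the pseudocount and are not folds. The circulating ex-Tcirc libraries had 8.61% and 4.03% of the depth of the deepest library, and the part of depth in these differences was not tested. Over the alternatives the adjusted p was 0.00693 to 0.998 for Mcm4, 0.00801 to 0.998 for Mcm5 and 0.00891 to 0.552 for Ccne1.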

How the results depend on the processing

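Counts of members called depended on the settings, and 5 members were called in opposite directions. The number of all genes called moved with the settings too, so these counts alone do not single out the members. In the main fit 10.8% of members were called averaged over origins, against 12.8% of all genes. The shares were 13.5% against 21.1% in ex-Tcirc and 18.9% against 15.5% in circulation. For the difference of location differences they were 8.11% against 7.41%. In ex-Tcirc, Mcm3, Cdt1, Mki67, Stmn1 and Tubb5 were called higher in tissue without circulating ex-Tcirc replicate 1 and lower without replicate 2, as was Tubb5 averaged over origins. For tissue minus circulating, averaged over origins, 4 members were called, 9 with a pseudocount of 0.1 FPKM, 8 with protein-coding genes only, 0 with a mean of at least 20 FPKM, with all 8 libraries or with genes above 0 in all 7 libraries, and 0 to 10 on leaving out 1 library. In ex-Tcirc it was 5, 8 with the smaller pseudocount or protein-coding genes only, 3 with a mean of at least 5 FPKM, 2 with library weights, 0 with a mean of at least 20, all 8 libraries or genes above 0 in all 7, and 3 to 12 on leaving out 1 library. In ex-TRM it was 0, 2 with the smaller pseudocount or no filter, 1 with library weights and 0 to 4 on leaving out 1 library. For ex-TRM minus ex-Tcirc in tissue it was 0, 3 with the smaller pseudocount, 2 with no filter or median-of-ratios factors, and 0 to 7 on leaving out 1 library. In circulation it was 7, 3 with a mean of at least 5 FPKM, 0 with a mean of at least 20, all 8 libraries or genes above 0 in all 7, and 0 to 17 on leaving out 1 library. For the difference of location differences it was 3, 7 with the smaller pseudocount, 5 with no filter, 0 with a mean of at least 20, any of the 3 scalings, all 8 libraries or genes above 0 in all 7, and 0 to 9 on leaving out 1 library. With all 8 libraries the ex-TRM location medians were 1.41 for G1/S and -0.017 for G2/M, since the added library was at 0 throughout. Filters on the mean and on genes above 0 tested fewer members. The cause of the other changes was not tested.

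Same-numbered libraries did not deviate together (correlations of -0.113, 0.0244 and -0.0793), so the numbers were not taken as pairs. With the replicate block, 0 members were called averaged over origins, in circulation and for the difference of differences, and 2 in ex-Tcirc. With numbers crossed in tissue ex-Tcirc, only ex-TRM minus ex-Tcirc in tissue was compared, and 0 members were called. Over all settings, the genes called ranged from 0 to 10141 averaged over origins, 0 to 10836 in ex-Tcirc, 0 to 3072 in ex-TRM, 0 to 5716 within tissue, 0 to 10181 within circulation and 0 to 10543 for the difference of differences. Scaling moved the median of all genes by up to 0.24 in the ex-TRM location comparison, to 0.11 with median-of-ratios factors, where the G2/M median was -1.22 and the G1/S median -0.12. Zeros in circulating ex-Tcirc reached well-expressed genes, with Mcm4 (8.55 to 11 FPKM in tissue) at 0 in both libraries and Tubb5 (60.3 to 64.8) at 0 in replicate 2, and the part of depth in these zeros was not tested.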
